A study of Homo sapiens with 2 samples.

Results

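Transcription factors that set up and maintain the myeloid lineage were followed by name in THP-1 cells: SPI1 (which encodes PU.1), CEBPA, CEBPB, CEBPE, RUNX1, RUNX2, MYB, IRF8, GFI1 and KLF4. All 10 genes were found, each as a single row, among the 30856 gene rows of the deposited table. Rows were taken by gene name, and the names had been chosen with earlier results of these data known. THP-1 is an established human line from an acute monocytic leukaemia and has a fusion of the KMT2A gene. The parental group was 1 library of untreated THP-1 cells. The resistant group was 1 library of THP-1 cells selected with cytarabine (Ara-C), a nucleoside analogue used against acute myeloid leukaemia, raised stepwise from 5 nM to 10 µM until the cells doubled as fast as untreated ones. Whether the resistant line was a clone or a mixed population, and whether drug was present at harvest, was not given in the sources used here. With 1 library per group there was no replicate and no test, so each difference compares 2 libraries. In bulk RNA, fewer cells of a type and less RNA per cell cannot be told apart.

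These factors act as a network. PU.1, an ETS factor, and C/EBPα, a basic leucine zipper factor, commit progenitors to the myeloid lineage, and RUNX1, which binds DNA with its partner CBFβ, opens that programme. MYB keeps progenitors dividing and immature. IRF8 and KLF4 favour monocytes, GFI1, a repressor, and C/EBPε favour granulocytes, and C/EBPβ serves in emergency myelopoiesis and in macrophages. RUNX2 is best known as the master regulator of bone formation and is also made in haematopoietic cells.

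RNA was measured as FPKM, fragments per kilobase of transcript and per unit of library size, and as whole read counts. The parental library held 57434972 counts and the resistant library 58285463, of which mitochondrial transcripts took 5.96% and 5.92%. Genes entered comparisons when they had a symbol and reached 1 FPKM in at least 1 library (11388 genes, written below as expressed). The 9 measured monocytic markers summed to 287 FPKM in parental and 148 in resistant cells. LYZ made up most of that sum, at 225 and 95.8, while CSF1R stood at 12.2 and 7.74, MPO at 2.81 and 0.94, CD68 at 31.6 and 29.2 and CD33 at 11.9 and 11.1. CD14 was near 0, at 0.50 and 0.03, and CLEC7A had 0 counts in both. Markers of other lineages summed to 1.95 and 1.51 FPKM for 2 measured erythroid genes, 1.99 and 0.87 for 5 megakaryocyte genes and 0.71 and 0.72 for 4 B cell genes. The 5 measured T and natural killer cell genes summed to 11.3 and 10.5 FPKM, nearly all of it NKG7, and the 5 epithelial and fibroblast genes to 0.17 and 0.31.

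The DNA just upstream of the start sites is shown for RUNX2 and KLF4, the expressed members furthest below their parental level in resistant cells, and for MYB, the one furthest above. RefSeq windows on GRCh38.p14 were found for 9 of the 10 genes (14 start sites in all). The lines below give the 250 bases before each RefSeq start site, 5′ to 3′ along the gene. These start sites can differ from the ends of the genes as counted. The KLF4 window lies inside the counted gene, which spans 107484852 to 107490482 on the minus strand. The first RUNX2 window runs past the start of the counted gene at 45328157. Capitals mark matches, on either strand, to TGTGGT (RUNX), TTGCNNAA (C/EBP), CCACCC (KLF) or GAGGAA (PU.1).
RUNX2 first start, chr6:45328080-45328329 (plus strand): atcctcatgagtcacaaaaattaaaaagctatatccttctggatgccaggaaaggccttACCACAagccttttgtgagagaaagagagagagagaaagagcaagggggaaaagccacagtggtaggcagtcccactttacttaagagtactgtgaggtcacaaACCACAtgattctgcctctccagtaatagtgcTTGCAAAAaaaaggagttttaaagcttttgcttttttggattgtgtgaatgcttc
RUNX2 second start, chr6:45422025-45422274 (plus strand): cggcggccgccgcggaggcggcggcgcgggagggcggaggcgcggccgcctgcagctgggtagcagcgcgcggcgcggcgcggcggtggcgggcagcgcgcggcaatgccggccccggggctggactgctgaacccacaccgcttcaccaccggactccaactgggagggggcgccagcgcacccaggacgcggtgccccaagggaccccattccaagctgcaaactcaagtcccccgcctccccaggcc
KLF4, chr9:107489770-107490019 (minus strand): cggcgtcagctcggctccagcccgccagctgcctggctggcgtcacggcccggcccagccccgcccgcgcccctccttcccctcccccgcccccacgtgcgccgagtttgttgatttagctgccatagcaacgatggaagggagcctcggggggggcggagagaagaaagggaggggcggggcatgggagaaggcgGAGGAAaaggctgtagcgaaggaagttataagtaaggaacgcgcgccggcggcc
MYB, chr6:135181058-135181307 (plus strand): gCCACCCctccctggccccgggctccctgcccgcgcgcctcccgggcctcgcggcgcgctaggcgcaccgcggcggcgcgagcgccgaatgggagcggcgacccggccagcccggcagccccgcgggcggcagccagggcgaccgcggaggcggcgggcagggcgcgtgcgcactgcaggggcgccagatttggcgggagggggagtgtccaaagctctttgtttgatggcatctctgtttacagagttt
RUNX2 has 2 annotated start sites, 93945 bases apart. The 250 bases before the first had a GC content of 41.6% and no CG dinucleotide, and those before the second had 78.0% and 34 CG dinucleotides. Counted over 300 bases (250 before and 50 after the start), the first window held 4 matches to the RUNX motif. Of 35116 RefSeq windows, 5 (0.0142%) held at least as many, the RUNX2 window itself included. This window was singled out as the RUNX2 window with the most matches, in a scan added after the values were seen, so the share is no test. These matches are letters in a window, and binding was not measured. At least 1 match was found in 3 of the 14 windows of these genes for RUNX (13.1% of all windows), in 5 for PU.1 (27.9%), in 7 for KLF (34.3%) and in 2 for C/EBP (10.5%). No window of these genes held AACNGTT (MYB, 3.51% of all windows), the IRF motif (GAAA repeated after 2 bases, 3.57%) or AAATCNC (GFI1, 10.9%). The counts per gene sum over start sites, so the use of each start is not resolved.

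RUNX2 and KLF4 were lower in the resistant cells by about the same factor, while the other expressed factors stayed within 1.5-fold. RUNX2 was 2.08-fold lower (95% counting interval 1.96 to 2.21) and KLF4 1.94-fold lower (1.78 to 2.12), as counts relative to the library total. On the log2(FPKM + 1) scale, where low genes look closer together than they are, 2 of the 9 expressed factors were at least 1.5-fold apart and both were lower. Of all 11388 expressed genes, 7.7% were at least 1.5-fold apart, 4.77% lower and 2.93% higher. RUNX2 and KLF4 fell short of 1.5-fold with a pseudocount of 5 FPKM, and RUNX2 passed 2-fold with 0.1 FPKM or with counts per library total. By the rule of at least 2-fold on the same scale, 0 of the 9 factors counted, against 1.86% of all expressed genes (0.632% higher and 1.23% lower). CEBPE did not reach 1 FPKM in either library and is outside these counts. The median log2 ratio of the 9 was 0.02, beside -0.02 over all expressed genes. Of the 9 ratios, 5 lay above 0 and 4 below.

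**Figure D1:**
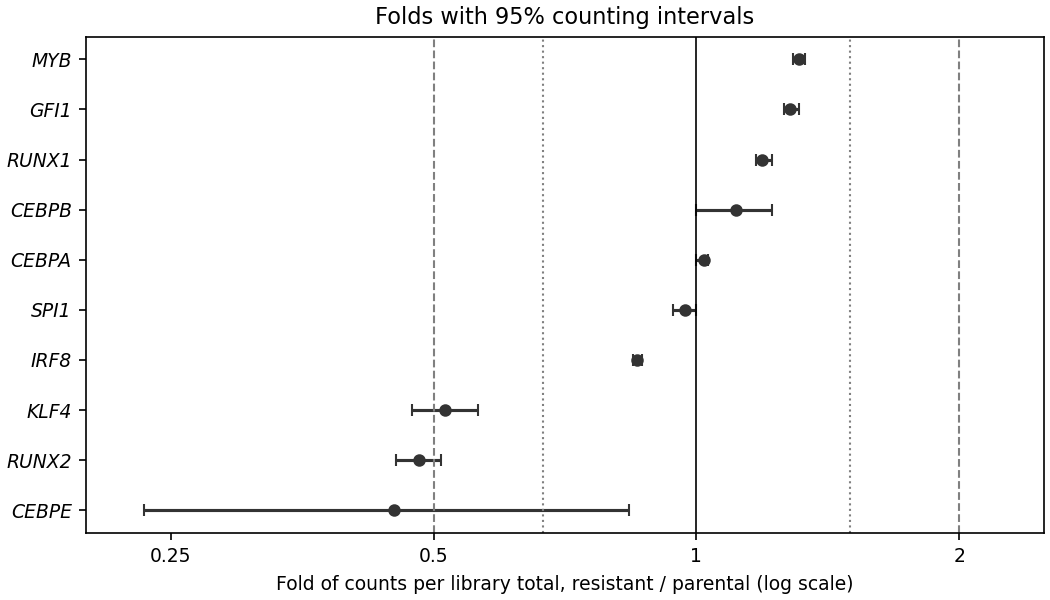
Share of each library's counts taken by a gene, as resistant over parental fold, for the 10 genes on a log axis, with 95% counting intervals from 1 library per group; dotted lines mark 1.5-fold and dashed lines 2-fold. RUNX2 (0.481) and KLF4 (0.515) sit apart from the other expressed genes, which run from 0.855 for IRF8 to 1.31 for MYB, and CEBPE has the widest interval (0.233 to 0.836).

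The order of the levels was the same in both libraries for all 10 genes. In FPKM, which is per length and allows levels of different genes to be set side by side, IRF8 was highest, followed by CEBPA, MYB, SPI1, GFI1, RUNX1, CEBPB, KLF4, RUNX2 and CEBPE. The first 4 made up 87.5% of the summed FPKM of the 10 genes in parental cells and 86.4% in resistant cells. Most neighbours in this order were separated by more than their counting intervals. The exceptions in parental cells were CEBPB, KLF4 and RUNX2, which lay at 6.18, 6.09 and 6.01 FPKM with overlapping intervals. In resistant cells CEBPB stood 2.19 times as high as KLF4, and only KLF4 and RUNX2 overlapped.

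**Figure D2:**
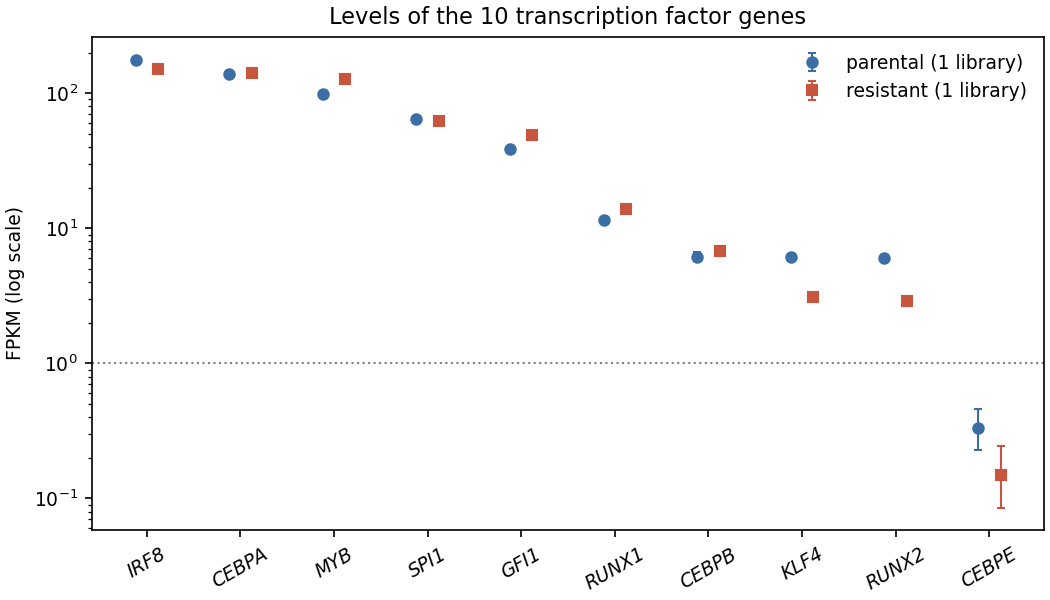
FPKM of each gene in the parental (circles) and resistant (squares) library on a log axis, 1 library per point, with bars for 95% counting intervals; the dotted line is 1 FPKM. IRF8, CEBPA, MYB and SPI1 lie above 60 FPKM in both libraries, and CEBPB, KLF4 and RUNX2 share a level in parental cells but not in resistant cells.

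Among the factors of lineage commitment, SPI1 and CEBPA were nearly level between the libraries. SPI1 (chromosome 11, 47354860 to 47378547, minus strand, GRCh38) was at 64.4 FPKM in parental and 62.3 in resistant cells, from 8762 and 8622 counts. Its fold was 0.970 (0.941 to 0.999). CEBPA (chromosome 19, 33299934 to 33302534, minus strand) was at 139 and 141 FPKM, from 24059 and 24799 counts, with a fold of 1.02 (0.998 to 1.03). It was the single gene of the 10 whose counting interval included 1, with 4 intervals above and 5 below. With TMM or median-of-ratios scaling its interval lay above 1 and that of SPI1 included 1. Over all expressed genes, intervals excluded 1 for 72.8% (33.7% above and 39.1% below), so at this depth an interval away from 1 is the common case, and the intervals cover counting error alone. RUNX1 (chromosome 21, 34787801 to 35984749, minus strand) was at 11.6 and 13.8 FPKM, from 12053 and 14603 counts, a fold of 1.19 (1.17 to 1.22). The ratio of CEBPA to SPI1 in FPKM was 2.15 in parental and 2.26 in resistant cells.

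MYB and GFI1 were the members furthest above their parental level, by 1.31-fold and 1.28-fold. MYB (chromosome 6, 135181308 to 135219172, plus strand) was at 98.4 FPKM in parental and 129 in resistant cells, from 36109 and 48029 counts (interval of the fold 1.29 to 1.33). GFI1 (chromosome 1, 92473043 to 92486925, minus strand), a zinc finger repressor that works with KDM1A, was at 38.5 and 49.4 FPKM, from 13018 and 16973 counts (1.26 to 1.31). Neither reached 1.5-fold, and on the log2(FPKM + 1) scale 92.9% of all expressed genes had a lower ratio than MYB and 91.6% a lower one than GFI1. CEBPE (chromosome 14, 23117304 to 23119616, minus strand), which drives the last steps of granulocyte maturation, was at 0.33 and 0.15 FPKM, from 35 and 16 counts. Its fold of 0.450 had an interval from 0.233 to 0.836, and at this level it was close to absent in both libraries.

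The 3 factors with monocyte or macrophage roles differed in size and side. IRF8 (chromosome 16, 85899162 to 85922606, plus strand) was at 177 FPKM in parental and 151 in resistant cells, from 56739 and 49240 counts, and was thus 1.17-fold lower (1.16 to 1.18). KLF4 (chromosome 9, 107484852 to 107490482, minus strand), a zinc finger factor of monocyte differentiation, was at 6.09 and 3.12 FPKM, from 1488 and 778 counts. CEBPB (chromosome 20, 50190830 to 50192668, plus strand) was slightly the other way, at 6.18 and 6.83 FPKM from 759 and 853 counts, a fold of 1.11 whose interval began at 1.003 and ended at 1.22. Set against each other in FPKM, MYB stood at 0.555 of IRF8 in parental and 0.851 in resistant cells, and GFI1 at 0.217 and 0.326. GFI1 was 6.32 times KLF4 in parental cells and 15.8 times in resistant cells.

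RUNX2 (chromosome 6, 45328157 to 45551082, plus strand) was at 6.01 FPKM in parental and 2.88 in resistant cells, from 3286 and 1603 counts. Of all expressed genes, 1.9% had a lower log2 ratio than RUNX2 and 2.4% a lower one than KLF4. Among 576 expressed genes that the table annotates with a DNA-binding transcription factor term, a set added after the values were seen, 8.85% were at least 1.5-fold apart, with 7.29% lower and 1.56% higher, and 2.08% were at least 2-fold apart, with 1.91% lower and 0.174% higher. Their median log2 ratio was -0.07. In log2(FPKM + 1) of the 2 libraries, the protein-coding genes nearest to RUNX2 were TNFRSF10B (5.84 and 2.92 FPKM) and ADGRL1 (5.75 and 2.88), and those nearest to MYB were RPL39 (103 and 128) and EIF4G2 (94.9 and 122). Likeness over 2 libraries is a likeness of level and of 1 ratio.

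**Figure D3:**
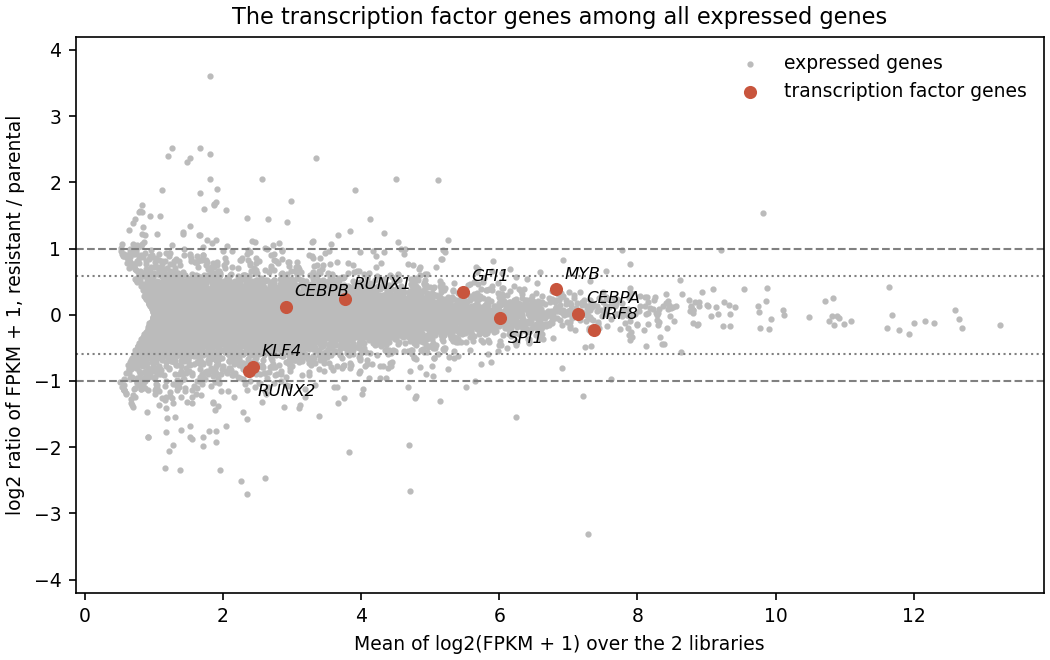
Log2 ratio of FPKM + 1, resistant over parental, against the mean of log2(FPKM + 1) for 11388 expressed genes (grey) with the 9 expressed factors in red; dotted lines mark 1.5-fold and dashed lines 2-fold. RUNX2 (-0.85) and KLF4 (-0.78) lie between the dotted and dashed lines, and the other 7 lie inside 0.38 of 0.

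Antisense and overlapping genes were examined because reads of neighbours can be counted in a member. The noncoding gene AL096865 (identifier ENSG00000271857, chromosome 6, 45421079 to 45422005, minus strand) lies inside RUNX2 on the opposite strand. Its 5′ end is 270 bases before the second RUNX2 start site printed above. It had 163 counts in parental and 62 in resistant cells and was 2.67-fold lower (1.98 to 3.63), on the same side as RUNX2. No exon base was shared between AL096865 and RUNX2 in GENCODE 29. The strand setting of the counting was not given, so reads of AL096865 cannot be told apart from those of unspliced RUNX2 RNA. SUPT3H, a coactivator subunit gene that overlaps the first part of RUNX2 on the opposite strand and also shares no exon base with it, was 1.25-fold lower (1.07 to 1.46), from 367 and 299 counts. MYB-AS1, antisense to MYB, had 33 and 65 counts and was 1.94-fold higher (1.26 to 3.05). It shares 103 of its 449 exon bases with MYB, and since the strand setting of the counting was not given in the sources used here, reads of MYB and MYB-AS1 over those bases cannot be told apart. CEBPB-AS1 had 26 and 41 counts (fold 1.55, 0.928 to 2.65) and shares 231 exon bases with CEBPB. The microRNA gene MIR6774, of 70 bases, lies inside IRF8 on the same strand and shares no exon base with it. It had 45 and 25 counts (fold 0.547, 0.322 to 0.912), and its reads cannot be told apart from those of unspliced IRF8 RNA. Within RUNX1, AP000331 had 37 and 14 counts (fold 0.373, 0.186 to 0.706), the pseudogene EZH2P1 had 0 and 2, and PPP1R2P2 had 0 in both libraries. The 2 noncoding genes named AC008738 inside CEBPA also had 0 in both. AP000331 lies on the opposite strand to RUNX1 and is not in GENCODE 29, so its exon overlap was not checked. Its reads cannot be told apart from those of RUNX1. The exon overlaps given for the other genes hold for GENCODE 29, and the exons as counted can differ.

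RUNX2 and KLF4 were lower than each of the 5 expressed genes with a symbol on either side of them on the chromosome. The antisense gene AL096865 has a clone name in place of a symbol and was outside this comparison. Its log2 ratio was -0.88, below that of RUNX2. Of the 5 expressed genes on each side, the median log2 ratio was -0.17 around RUNX2, with TNFRSF21 lowest at -0.78, against -0.85 for RUNX2. Around KLF4 it was 0.12, with CTNNAL1 lowest at -0.60, against -0.78 for KLF4. With 10 genes on each side RUNX2 was still below all of them (lowest -0.79, PAQR8), whereas ABCA1 at -0.87 was below KLF4. MYB, at 0.38, lay inside the range of its neighbours (-0.06 to 0.63), whose median was 0.25. RUNX1, at 0.23, was above its 5 neighbours on each side (highest 0.11) and its 10 on each side (highest 0.21). For the other 7 genes the medians of the neighbours ran from -0.16 for SPI1 to 0.04 for GFI1.

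Within families, RUNX2 and KLF4 had relatives that were lower too, and MYB had relatives on the opposite side. RUNX1 took 38.8% of the summed FPKM of the 3 RUNX genes in parental and 50.9% in resistant cells, RUNX2 20.1% and 10.6%, and RUNX3 41.1% and 38.5%. RUNX3, at 12.3 and 10.4 FPKM, was 1.18-fold lower (1.12 to 1.23). With RUNX1 higher and RUNX2 lower, the ratio of RUNX1 to RUNX2 in FPKM was 1.93 in parental and 4.80 in resistant cells. The MYB relatives MYBL2, a cell cycle factor, and MYBL1 were lower: MYBL2 stood at 123 and 95.8 FPKM (1.28-fold, 1.25 to 1.3) and MYBL1 at 1.82 and 1.12 (1.62-fold, 1.46 to 1.81). MYB made up 44.2% of the FPKM of its family in parental and 57.0% in resistant cells.

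Of 9 expressed KLF relatives, KLF3 and KLF6 were at least 1.5-fold lower in log2(FPKM + 1) and none was that much higher. The median log2 ratio of the 9 was -0.16. KLF3, a repressor of the family, was at 1.9 FPKM in parental and 0.84 in resistant cells (2.26-fold lower, 2.00 to 2.55). KLF6, an early response factor, was at 4.33 and 2.49 (1.74-fold lower, 1.61 to 1.88), and KLF9 at 4.73 and 3.36 (1.40-fold lower, 1.3 to 1.51). KLF16 at 19.3 and 17.1, KLF13 at 13.82 and 13.02, KLF10 at 4.86 and 4.16, KLF11 at 4.31 and 4.88, KLF7 at 2.73 and 2.61 and KLF2 at 1.02 in both were less than 1.5-fold apart. KLF5 (0.86 and 0.95) and KLF12 (0.33 and 0.50) did not reach 1 FPKM, and KLF1 had 0 counts in both libraries.

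In the C/EBP and IRF families 1 member held most of the FPKM in both libraries. CEBPA took 71.3% of the FPKM of CEBPA, CEBPB, CEBPD, CEBPE and CEBPG in parental and 72.6% in resistant cells. CEBPD was at 28.7 and 26.5 FPKM and CEBPG at 20.8 and 19.7, while the stress-induced relative DDIT3 was at 6.31 and 8.40 (fold 1.33, 1.19 to 1.49). IRF8 took 80.3% of the FPKM of the 8 IRF genes described in parental and 77.9% in resistant cells. IRF7, an interferon-induced factor, was at 1.01 and 1.70 (fold 1.67, 1.38 to 2.01), IRF3 at 16.4 and 14.4, IRF5 at 17.3 and 17.8, IRF2 at 4.99 and 5.32, IRF1 at 2.68 and 2.93 and IRF9 at 1.13 and 0.88. IRF4 had 14 counts in parental cells and 0 in resistant cells, which allows up to 3. SPIB, a relative of SPI1, was at 1.03 and 0.90 FPKM.

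**Figure D4:**
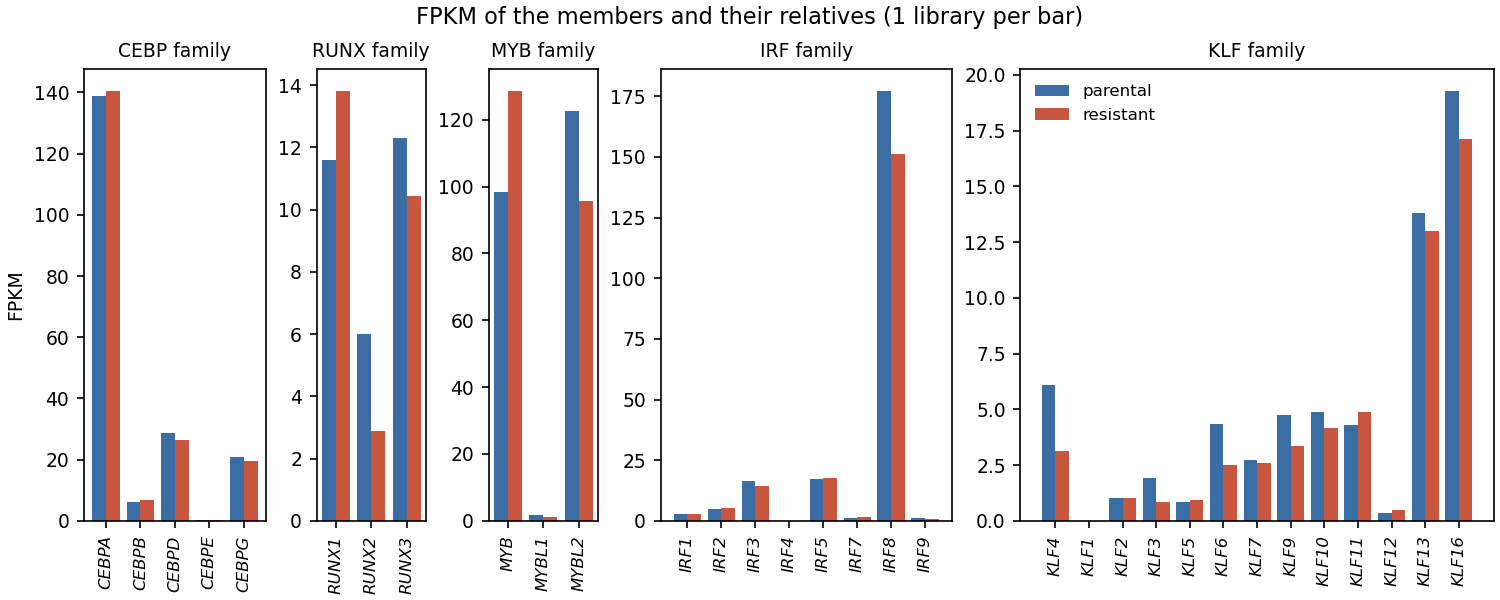
FPKM of the C/EBP, RUNX, MYB, IRF and KLF genes in parental and resistant cells, 1 library per bar, each panel with its own axis from 0. RUNX1 stands higher in resistant cells while RUNX2 and RUNX3 stand lower, MYB stands below MYBL2 in parental cells and above it in resistant cells, and CEBPA and IRF8 dominate their families in both libraries.

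Partners and cofactors were mostly level. Counts of listed genes at least 1.5-fold or 2-fold apart, here and for the other lists, are on the log2(FPKM + 1) scale, and the folds with intervals are of counts and can be larger. On that scale 1 of 27 expressed partner genes was at least 1.5-fold lower and none higher, with a median log2 ratio of -0.06. The one was JUN, an AP-1 subunit that PU.1 uses as a coactivator, at 5.35 FPKM in parental and 2.72 in resistant cells (1.96-fold lower, 1.78 to 2.17). TRIB2, also in this list, did not reach 1 FPKM and was not counted, with 229 and 81 counts (2.87-fold lower, 2.22 to 3.74). The acetyltransferase CREBBP, a coactivator of MYB, was at 7.05 and 4.95 (1.42-fold lower, 1.37 to 1.47), and BATF3, a partner of IRF8, at 0.89 and 1.64 (fold of counts 1.84, 1.5 to 2.25, but 0.48 in log2(FPKM + 1), short of 1.5-fold). CBFB, the shared partner of the RUNX factors, was at 29.8 and 31.7 FPKM, and KDM1A, the demethylase recruited by GFI1, at 28.01 and 26.96. Of 33 other expressed transcription factors of blood cells, NFE2 was at least 1.5-fold higher and ID3 and HLX were at least 1.5-fold lower, ID3 by more than 2-fold. NFE2, an erythroid and megakaryocyte factor, was at 1.13 and 2.35 FPKM. ID3, an inhibitor of helix-loop-helix factors, was at 2.75 and 0.76 (3.59-fold lower, 2.78 to 4.68), and HLX, a homeobox factor, at 5.45 and 3.07 (1.77-fold lower, 1.65 to 1.91). GATA2, a progenitor factor, was at 4.49 and 4.50. Outside these counts, at below 1 FPKM in both libraries, TCF4 had 882 and 73 counts (12.3-fold lower, 9.65 to 15.8). MAF had 137 and 22 (6.32-fold lower, 4.01 to 10.4), and TAL1 went the other way with 7 and 23 (fold 3.24, 1.35 to 8.93).

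Genes reported as targets of these factors went in both directions. The lists came from general knowledge, and membership does not show control in these cells. Of 22 expressed genes reported as PU.1 targets, 6 were at least 1.5-fold apart, 3 on each side, beside 7.7% of all expressed genes. The split depends on the scale. CD53, at 18.45 FPKM in parental and 12.01 in resistant cells, was 1.53-fold lower in counts (1.44 to 1.63). At -0.58 in log2(FPKM + 1) it fell just short of 1.5-fold. The median log2 ratio of the 22 was 0 to 2 decimals. The listed targets CD14 (56 and 4 counts), IL1B (100 and 35) and MSR1 (43 and 0) did not reach 1 FPKM. All were lower in resistant cells and are outside this split. CYBB, the catalytic subunit of the phagocyte oxidase, was at 1.57 FPKM in parental and 3.49 in resistant cells (fold 2.23, 1.99 to 2.49), and the kinase gene FGR at 0.53 and 1.67 (3.12, 2.54 to 3.85). NCF1, another oxidase subunit with near-identical pseudogenes that make its counts uncertain, was at 0.79 and 1.91. On the lower side were AIF1, a calcium-binding protein of macrophages, at 44.3 and 22.9 (1.93-fold lower, 1.83 to 2.04), the integrin gene ITGB2 at 41.5 and 27.3 (1.51-fold, 1.48 to 1.55) and CSF1R at 12.2 and 7.74 (1.57-fold, 1.49 to 1.64). CSF1R, the receptor for macrophage colony-stimulating factor, was also the single one of 12 expressed growth factor receptor genes that was at least 1.5-fold apart. FLT3 was at 4.76 and 5.85 and IFNGR2 at 12.2 and 9.48.

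Genes linked to C/EBP factors split within their own lists. Over all expressed genes 7.7% were at least 1.5-fold apart. Of 10 expressed genes of primary granules and C/EBP-controlled receptors, 5 were, 3 of them higher and 2 lower. The higher ones were SRGN, the granule proteoglycan, at 531 FPKM in parental and 1538 in resistant cells (fold 2.91, 2.87 to 2.94), CTSG, a serine protease, at 155 and 306 (1.97, 1.94 to 2.02), and CST7, a cystatin, at 2.13 and 5.13 (2.41, 1.96 to 2.99). The lower ones were LYZ at 225 and 95.8 (2.34-fold lower, 2.29 to 2.40) and myeloperoxidase, MPO, at 2.81 and 0.94 (2.97-fold lower, 2.55 to 3.47). ELANE, AZU1 and PRTN3, the other granule proteases and their relative, stood at 359 and 448, at 305 and 326, and at 331 and 299. Of 5 expressed genes of late granulocyte maturation, S100A9 (10.0-fold lower, 9.56 to 10.5), S100A8 (6.84-fold, 6.26 to 7.48) and S100A12 (3.25-fold, 1.94 to 5.67) were lower, while the secreted glycoprotein gene CHI3L1 was higher, at 181 and 310 FPKM. The remaining one, CAMP, was at 1.42 and 0.99 FPKM (1.39-fold lower, 0.955 to 2.02). Below 1 FPKM in this list, HP had 28 and 72 counts (fold 2.53, 1.62 to 4.07) and BPI 5 and 12. MMP8 and MMP9 had 0 counts in both libraries. S100A8, S100A9 and S100A12 encode calcium-binding proteins that are not stored in granules. The receptor CSF3R, a classical C/EBPα target, was at 10.1 FPKM in both libraries.

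For MYB, IRF8 and GFI1 the reported target lists held few differences of size, and the bone genes of RUNX2 were too low to be counted. None of 8 expressed MYB targets was at least 1.5-fold apart (median log2 ratio -0.10). KIT, a listed target and progenitor marker below 1 FPKM, had 77 and 35 counts (2.23-fold lower, 1.48 to 3.43). CXCR4 was at 24.6 FPKM in parental and 18.8 in resistant cells, ADA at 4.38 and 3.26, ANPEP at 33.5 and 39.9, MYC at 40.6 and 45.9 and BCL2 at 19.3 and 18.2. Of 9 expressed IRF8 targets, CYBB alone was at least 1.5-fold apart in log2(FPKM + 1), and BATF3, also in this list, was so in counts only. The median was -0.02, and CST3, cystatin C, was at 29.2 and 22.2 FPKM. The 5 expressed genes that GFI1 is reported to repress had a median of 0.29, with none 1.5-fold apart. They included CDKN1A at 5.45 and 7.98, ID2 at 25.2 and 31.7 and EGR1 at 8.93 and 6.15. CSF1, also in this list, was below 1 FPKM with 76 and 181 counts (fold 2.35, 1.79 to 3.11). Of the 4 measured bone genes controlled by RUNX2 in osteoblasts, none reached 1 FPKM, so the size rule could call none of them. SPP1 had 7 and 33 counts (fold 4.65, 2.02 to 12.4) and BGLAP 15 and 6 (fold 0.394, 0.125 to 1.08). COL1A1 had 10 and 8, and SP7 10 and 0. Among 5 expressed progenitor markers none was 1.5-fold apart. Of 6 expressed monocytic markers, LYZ, MPO and CSF1R were at least 1.5-fold lower, and all 6 log2 ratios were below 0 (median -0.36). These markers were lower together with KLF4 and RUNX2, and their part in those differences was not tested.

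**Figure D5:**
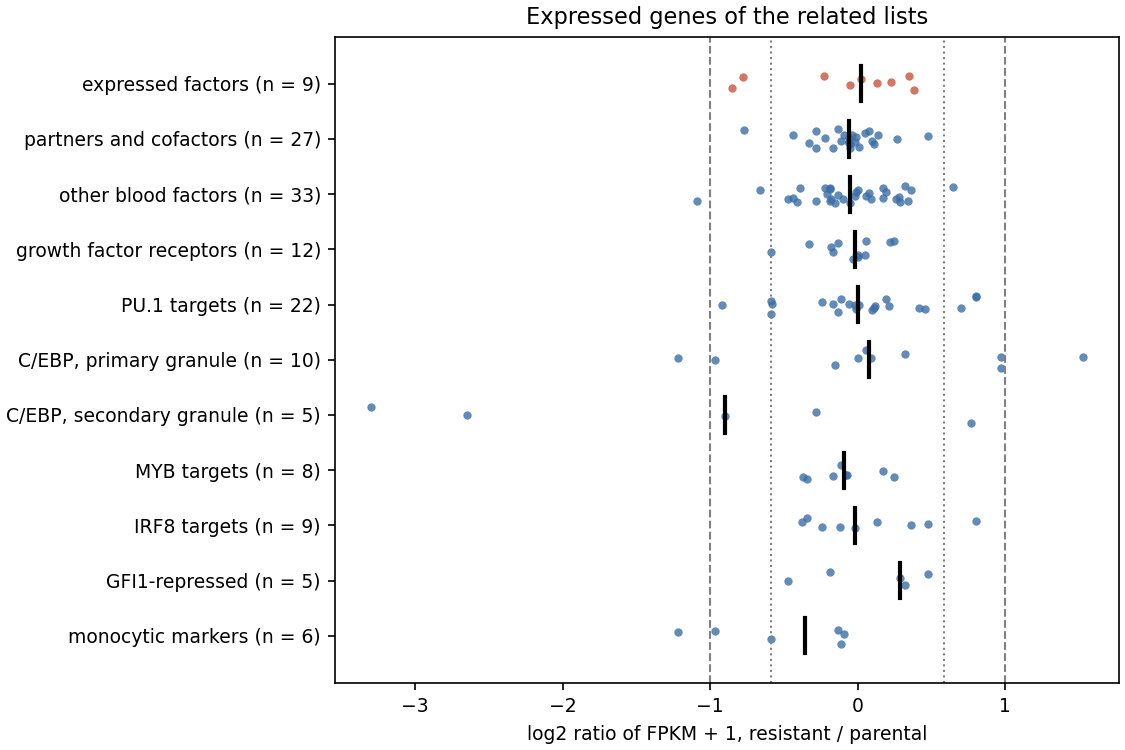
Log2 ratio of FPKM + 1, resistant over parental, of the expressed factors (red) and of the expressed genes of 10 related lists (blue), with the median of each as a black bar; dotted lines mark 1.5-fold and dashed lines 2-fold. The spread is widest in the C/EBP-linked lists, where S100A9 (-3.30) and SRGN (1.53) mark the ends, and the MYB and GFI1 lists stay inside the dotted lines.

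The table's own pathway annotation placed 6 of the 10 genes under transcriptional misregulation in cancer and 4 (SPI1, CEBPA, CEBPE and RUNX1) under acute myeloid leukaemia. MYB, GFI1, IRF8 and KLF4 were in neither, and CEBPB and RUNX2 were in the first only.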

How the data were processed

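Poly(A) RNA of 1 parental and 1 resistant THP-1 library was sequenced from a strand-marking (dUTP) preparation, per the labels' protocols. The deposited table gives FPKM and read counts per Ensembl gene. Both were made by the authors, and FPKM is normalised to length and library size while the counts are not normalised. The submitters' processing notes name GRCh38 and these tools, without roles: edgeR, DESeq2, StringTie 1.3.4d, HISAT2 2.0.4 and cutadapt 1.9 (per the submitters' processing notes). Not given in the sources used here were the strand setting, the annotation release and how multi-mapping reads were treated. The resistant count column has a name ending (_2) with no explanation in the labels. Over 9179 well covered genes its log2 ratio to the parental counts, per total, differed from that of FPKM by a median of -0.004 (SD 0.0019).

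The size rule used the resistant minus parental difference in log2(FPKM + 1), so the pseudocount was 1 FPKM, over genes with a symbol and at least 1 FPKM in 1 library. Folds are counts relative to the library total, with exact 95% Clopper-Pearson intervals that treat reads as independent molecules and cover counting error only. Levels have exact Poisson intervals. A count of 0 allows up to 3 counts. The members and gene lists were chosen with earlier results of these data known. Named genes were the 10 members, their relatives, overlapping genes, the 3 furthest apart in each of 24 lists, genes making up a count of 5 or fewer, and the 2 nearest to the highest and lowest member; others named (CD33, CD68, CD14, CLEC7A, CBFB, KDM1A, GATA2, ELANE, AZU1, PRTN3, CSF3R, MYC, BCL2 and the bone genes) were chosen after their values were seen. TCF4, MAF, TAL1, TRIB2, KIT, CSF1, IL1B and MSR1, all below 1 FPKM, were also chosen after their values were seen. So were CD53, HP, BPI, MMP8 and MMP9. Functions were tested on simulated counts. Alternatives changed the pseudocount, the minimum, the scaling (with edgeR 4.0.16 for TMM, a trimmed mean scaling) and the gene class. The software was R 4.3.3 and Python 3.11.15 with matplotlib 3.10.9, scipy 1.17.1, pandas 2.3.3 and numpy 2.4.6. The transcription factor set, exon overlaps and motif scan were added after the values were seen. One relative of the members is not reported here. The design had assumed FPKM alone, and the counts found were used too.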

Additional observations from a re-analysis of the deposited data

How the results depend on the processing

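The count of 2 factors at least 1.5-fold apart was kept by RUNX2 and KLF4 in 7 of 8 alternatives and was 0 with a pseudocount of 5 FPKM. No factor was 2-fold apart as reported, but 1 was (RUNX2) with a pseudocount of 0.1 FPKM, with CPM, and with CPM and TMM. Of all expressed genes, 212 were 2-fold apart, with 592 at 0.1 FPKM, 30 at 5 FPKM, 89 with a minimum of 5 FPKM, 375 with CPM and 374 with TMM. The 877 genes at 1.5-fold became 1488, 189 and 378 in the first 3 of these, 1195 with CPM and 1178 with TMM. Listed genes 2-fold apart numbered 5, and 12, 10 and 12 with 0.1 FPKM, CPM and TMM. The pseudocount shrinks low genes by construction. Each factor's fold stayed on its side of 1 under TMM, median of ratios and FPKM ratios (CEBPA 1.01 to 1.04, SPI1 0.967 to 0.989). Scaling moved the median of all genes by less than 0.1 (log2). The median of the factors was below 0 without a minimum, as CEBPE then enters. Of 157 alternative list medians, 19 moved by over 0.1 and 5 changed sign, all in the PU.1, IRF8 and receptor lists, whose medians lie within 0.02 of 0. No paired analysis was possible because each group has 1 library. Depth limits CEBPE, CEBPB-AS1, MIR6774 and other genes with few counts.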
